A study of Mus musculus with 8 samples.

Results

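The regions described here are 3089 Ets1 binding peaks that lay between genes and were found in both macrophage states that were profiled. They were taken from the peak list of M1 macrophages, which held 23089 peaks. A peak was kept when it overlapped a peak of the M2 list (22640 peaks) by at least 1 bp, when its summit lay more than 1 kb from every transcription start site, and when the summit lay outside every gene of the expression table. They made up 13.4% of all M1 peaks and 21.0% of the 14737 M1 peaks that overlapped an M2 peak. Of those shared peaks, 7323 had a summit within 1 kb of a start site and 4325 lay inside a gene.

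Ets1 belongs to the ETS transcription factors, which bind DNA through a shared domain that reads a GGA core. It is best known from lymphocytes and endothelium. In macrophages the ETS factor PU.1 opens many promoter-distal elements, at which AP-1, C/EBP and NF-κB family factors also bind. Peaks between genes can mark such distal elements. They can also come from repeats or from parts of the assembly to which reads from elsewhere are mapped, and clustering and very high enrichment are 2 signs of such places.

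All samples were mouse bone marrow-derived macrophages, grown from marrow of 8-week-old males for 7 days with M-CSF (10 ng/ml) and 10% serum. For ChIP-seq (chromatin immunoprecipitation and sequencing), wild type C57 cells were then polarized to M1 (classical) or M2 (alternative) macrophages by agents that the labels do not name, and Ets1-bound DNA was sequenced in 1 library per state. For RNA-seq, 3 libraries came from control cells (Ets1 f/f) and 3 from knockout cells (Ets1 f/f * Lyz2-cre); both groups carry the floxed Ets1 alleles, the Cre recombinase is driven by the myeloid gene Lyz2, and no polarization is given. The ChIP-seq cells and the RNA-seq cells thus differed in genotype and treatment. With 1 library per state, no difference between M1 and M2 could be tested, and whether the polarization took place could not be checked in the peak lists. The RNA-seq libraries held 16897873 to 20259175 reads in genes; the peak lists give no sequencing depth. Nothing in the labels says that the RNA-seq libraries came from separate animals, so the p-values measure the spread between these libraries.

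The label of these regions, peaks between genes, depended on the gene set. The expression table lists 23346 genes, and each has a value above 0 in at least 1 library, so genes without reads in these cells were not in the rule. In the RefSeq annotation of the same assembly (GRCm38.p6, mm10), 680 of the 3089 summits (22.0%) lay inside a gene. For 585 of the 680, the symbol of no such gene was in the expression table. Only symbols were compared, so a gene listed under another name counted as absent. The RefSeq gene was a long noncoding RNA for 435 of the 680 and protein coding for 197. A total of 139 summits lay within 1 kb of a RefSeq start, 49 of them outside RefSeq genes. In both annotations together, 2360 peaks (76.4%) remained between genes.

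Sequence was at hand only for promoters, as RefSeq windows of 300 bases that run from 250 bases before to 50 after a start. Of the 3089 summits, 43 fell in such a window, in 46 windows of 32817. These are peaks that the expression table places between genes and RefSeq places at a start site. They are printed for a pair of motifs: the ETS core CCGGAAG and the AP-1 site TGANTCA, both searched on both strands, with matches in capitals. The letters of the 2 motifs do not overlap in these windows. The windows shown are the 3 with an ETS core and the 3 with an AP-1 site whose M1 peaks had the highest fold enrichment, leaving out a window of Gm51532 that overlaps that of Zfp869 and holds the same peak. The windows of Stpg2 (chr3:139205643-139205942, plus strand), Cpeb4 (chr11:31870690-31870989, plus) and Gm51425 (chr17:17004866-17005165, plus) hold the ETS core.
Stpg2: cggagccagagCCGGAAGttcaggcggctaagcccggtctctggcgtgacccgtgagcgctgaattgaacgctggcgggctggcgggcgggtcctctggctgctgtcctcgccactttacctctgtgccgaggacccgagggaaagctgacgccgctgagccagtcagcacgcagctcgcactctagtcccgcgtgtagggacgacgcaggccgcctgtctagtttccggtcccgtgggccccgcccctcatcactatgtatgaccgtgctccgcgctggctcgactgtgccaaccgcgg
Cpeb4: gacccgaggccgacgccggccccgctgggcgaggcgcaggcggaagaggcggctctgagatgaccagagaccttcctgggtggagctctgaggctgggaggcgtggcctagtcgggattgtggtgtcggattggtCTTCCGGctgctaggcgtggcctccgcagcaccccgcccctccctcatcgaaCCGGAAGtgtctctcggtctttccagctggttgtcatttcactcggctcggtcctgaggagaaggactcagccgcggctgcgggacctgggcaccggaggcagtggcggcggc
Gm51425: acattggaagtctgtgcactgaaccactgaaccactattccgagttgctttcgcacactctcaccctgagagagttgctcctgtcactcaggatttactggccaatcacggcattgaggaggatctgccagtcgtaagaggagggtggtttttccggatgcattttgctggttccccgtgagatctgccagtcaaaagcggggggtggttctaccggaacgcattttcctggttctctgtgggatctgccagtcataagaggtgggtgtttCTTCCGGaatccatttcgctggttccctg
The windows of Gm40491 (chr12:86833714-86834013, minus strand), Zfp869 (chr8:69716853-69717152, minus) and D130051D11Rik (chr15:85634346-85634645, plus) hold the AP-1 site.
Gm40491: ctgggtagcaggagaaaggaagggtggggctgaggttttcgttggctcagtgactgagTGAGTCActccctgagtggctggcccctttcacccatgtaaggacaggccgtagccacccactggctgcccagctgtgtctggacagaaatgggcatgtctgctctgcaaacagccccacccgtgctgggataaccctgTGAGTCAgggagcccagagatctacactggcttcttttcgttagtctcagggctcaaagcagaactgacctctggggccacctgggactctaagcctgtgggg
Zfp869: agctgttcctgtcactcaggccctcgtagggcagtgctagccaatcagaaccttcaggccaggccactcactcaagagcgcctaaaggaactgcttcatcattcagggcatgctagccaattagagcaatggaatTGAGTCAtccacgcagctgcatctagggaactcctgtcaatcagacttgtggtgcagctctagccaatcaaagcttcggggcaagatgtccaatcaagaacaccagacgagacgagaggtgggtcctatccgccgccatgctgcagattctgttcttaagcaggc
D130051D11Rik: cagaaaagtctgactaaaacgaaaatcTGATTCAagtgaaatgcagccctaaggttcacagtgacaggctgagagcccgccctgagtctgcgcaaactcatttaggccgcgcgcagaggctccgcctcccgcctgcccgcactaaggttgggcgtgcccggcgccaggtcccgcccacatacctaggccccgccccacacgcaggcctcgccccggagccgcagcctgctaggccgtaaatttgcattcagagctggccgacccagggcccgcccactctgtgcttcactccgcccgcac

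The ETS core was found in 7 of the 46 windows (15.2%). It was in 8.86% of all 32817 RefSeq windows and in 24.0% of the 4548 windows that held the summit of a shared promoter peak. In the 377 windows that held the summit of a shared peak inside a gene it was 15.1%, about the same share. The AP-1 site was found in 10 of the 46 windows (21.7%), against 7.81% of all windows and 3.87% of those with a shared promoter summit. It was in 6.10% of the windows with a shared summit inside a gene. The 10 windows rest on 8 peaks, since a pair of overlapping windows at Zfp869 and another at Gm36199 hold the same site; the 7 windows with an ETS core rest on 7 peaks. The search covered the whole window, so a match can lie outside the peak. This was so for the ETS cores of Gm51425 and Gm36199 and for the AP-1 site of D130051D11Rik. The shares are of few windows, with no test. Median GC content was 56.5% in the 46 windows, 52.7% in all windows, 64.0% in the windows of shared promoter peaks and 63.0% in those of shared peaks inside genes. A single window, at Gm36199 near Pim1, held both motifs, and 30 windows held neither. The shorter core GGAA was in 93.5% of the 46 windows and in 96.0% of all windows.

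The highest of these peaks, at the Stpg2 start, had a fold enrichment of 17.1 in the M1 list and 16.6 in the M2 list, and its summit lay 63 bases before the RefSeq start. Stpg2 itself was not in the expression table, and the nearest start site there, of Rap1gds1, was 131 kb away. At Cpeb4, which encodes a regulator of mRNA polyadenylation, the peak (13.3 in M1, 10.8 in M2) lay 1.43 kb from the start in the expression table and 157 bases before a RefSeq start, and the window held 2 ETS cores. The peak in the Gm40491 window (16.5 in M1, 11.3 in M2) had 2 AP-1 sites and belonged to a cluster of 5 peaks near Gm10095. The 43 peaks at RefSeq starts had a median M1 fold enrichment of 7.54.

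Fold enrichment, the ratio of the ChIP signal at the summit to the background that the authors' peak caller estimated, was lower between genes than at promoters. These values are the authors' own for each peak, as are the q values. In the M1 list the 3089 peaks had a median of 6.19 (quartiles 4.99 and 7.92), against 8.05 for shared promoter peaks and 6.17 for shared peaks inside genes. In the M2 list the overlapping peaks had medians of 6.49, 8.12 and 6.41 in the same order. Both lists thus placed the peaks between genes beside those inside genes and below those at promoters. The median −log10 q was 7.15 in the M1 list, against 12.1 at promoters, and the median width was 342 bp, against 527 bp. The peaks between genes were in the main narrow and of modest significance: 839 of them had a −log10 q of at least 10 in both lists.

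**Figure D1:**
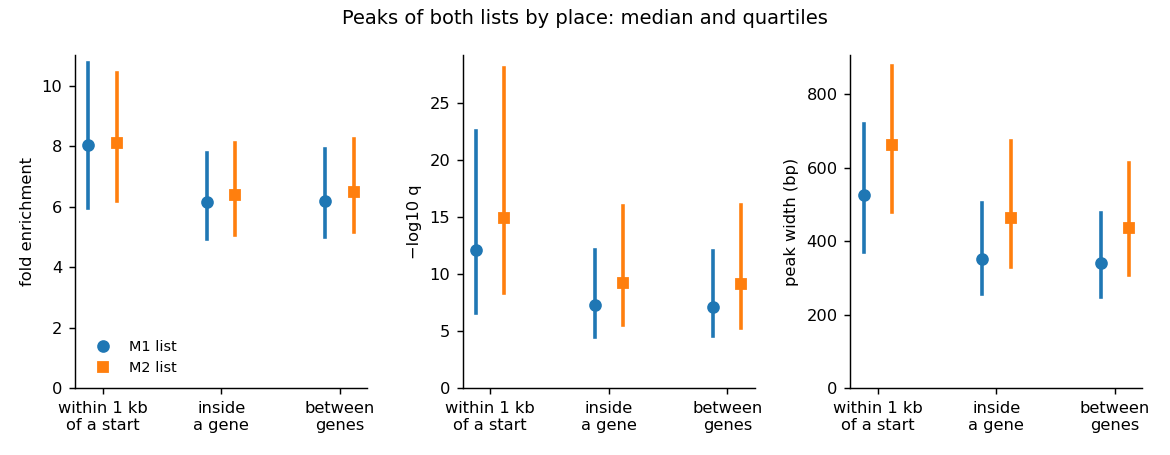
Fold enrichment (left), −log10 q (middle) and width in bp (right) of peaks found in both lists, by place of the M1 summit; circles are medians in the M1 list, squares medians of the overlapping peaks in the M2 list, and bars run from the lower to the upper quartile. Peaks between genes have a median M1 fold enrichment of 6.19, next to 6.17 inside genes and below 8.05 within 1 kb of a start.

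Sharing between the lists differed by place. Of the 6780 M1 peaks between genes, 45.6% overlapped an M2 peak, against 88.9% of those at promoters and 53.6% of those inside genes. The share rose with enrichment. Among M1 peaks between genes with a fold enrichment of 2.35 to 4.33, 18.4% overlapped an M2 peak, and among those of 6.52 to 44.8, 82.5% did. The M1 peaks without an overlap were weaker, with a median of 4.57. Since a peak near the caller's threshold can be missed in either library, an unshared peak was not taken as specific to M1.

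The summits of both lists agreed closely at some of the regions and loosely at most. The median distance between the M1 summit and the M2 summit was 58 bp, and 1415 of the 3089 (45.8%) were within 50 bp. The M2 peaks were wider, with a median of 437 bp. The 3089 M1 peaks overlapped 3024 distinct M2 peaks, because 130 of them shared their M2 peak with another of the 3089.

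The summits lay at a median of 21.1 kb from the nearest start site (quartiles 8.17 and 50.6 kb, largest 1806 kb). Those nearest to the 1 kb limit were 1005 and 1007 bp away, and the summits next outside it were 1000 and 977 bp away. The nearest start was downstream of the peak, so that the peak lay upstream of the gene, for 2012 peaks (65.1%), and among the 444 peaks 1 to 5 kb from a start it did for 375. A peak inside a gene cannot be a member, which removes near downstream positions. Median M1 fold enrichment changed little with distance, from 5.70 at 1 to 5 kb to 6.31 at 10 to 50 kb and 6.19 at 100 to 500 kb. A total of 389 peaks were more than 100 kb from any start site. On chromosome X there were 36 peaks, 15.9% of the shared peaks there, and on chromosome 12 there were 137, or 25.7%.

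Very high enrichment was the first sign of artifact regions that was looked at. The 99th percentile of M1 fold enrichment over all 23089 peaks was 17.0, and 43 of the 3089 peaks (1.39%) exceeded it. The share was 2.12% among shared promoter peaks and 0.624% among shared peaks inside genes. The 43 peaks were unlike the other 3046 in position: their M1 and M2 summits were a median of 6 bp apart, against 59 bp, and 15 of the 43 (34.9%) were over 100 kb from a start site, against 12.3%. Beyond 500 kb, 6 of 44 peaks (13.6%) were of very high enrichment, and at 1 to 5 kb it was 1 of 444. Their median −log10 q was 84.4, against 7.04 for the others. Of the 43, 5 were on chromosome X, 6 on chromosome 9, and 32 lay between genes in both annotations.

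**Figure D2:**
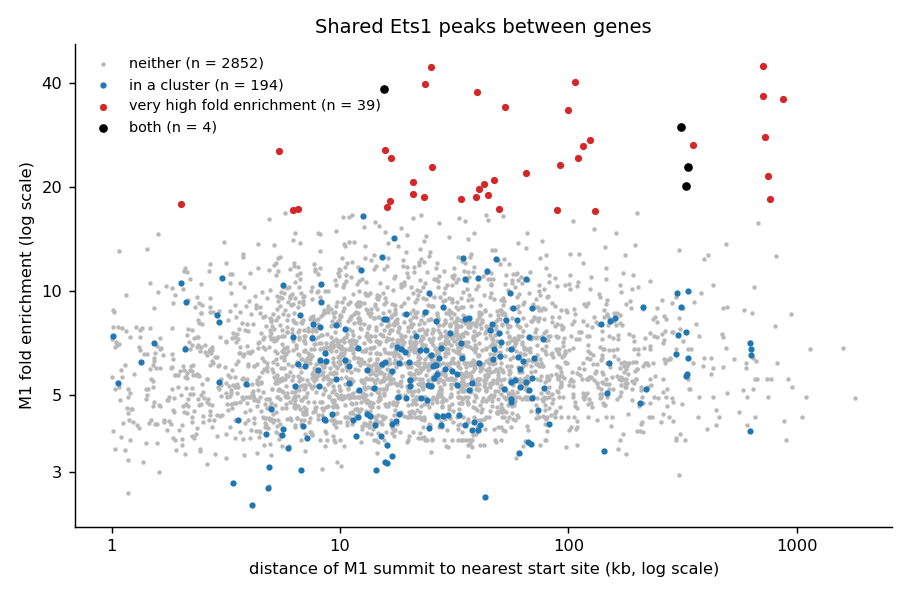
M1 fold enrichment (log scale) of each of the 3089 peaks against the distance of its summit to the nearest start site (kb, log scale); blue points are in a cluster of 3 or more, red points exceed the 99th percentile of all M1 peaks, black points do both. The 43 peaks of very high enrichment stand above 17.0 at all distances, including 6 beyond 500 kb, while the rest form 1 band around 6.19.

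The 10 peaks with the highest M1 fold enrichment had values of 33.4 to 44.8 in the M1 list and 28.7 to 37.3 in the M2 list, and the same 10 were the highest of the 3089 in the M2 list. They were narrow, from 173 to 550 bp, and their summits in the lists were at most 39 bp apart. The highest, chr12:120028661-120028966, had a fold enrichment of 44.8 in M1 and 36.6 in M2, had its summit at the same base in both, and lay 714 kb downstream of the start of Macc1. The next, chr16:98107503-98107675 (44.6 in M1, 37.3 in M2), also had its summit at the same base in both and lay 25.1 kb upstream of A630089N07Rik. These positions were thus the same to the base in 2 libraries from different treatments.

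Among the other 8, chr12:3109872-3110099 (40.1 in M1, 35.0 in M2) lay in the first sequenced stretch of chromosome 12, nearest to Gm18774, and chrX:170880942-170881295 (35.9 in M1, 30.4 in M2) lay 871 kb from the nearest start site, that of Gm21887. Another lay inside Chl1, a neural adhesion gene that RefSeq lists and the expression table does not (chr6:103649057-103649282, 36.6 in M1, 29.1 in M2). A peak 15.6 kb upstream of Adgre5, which encodes the adhesion receptor CD97, had 38.4 in M1 and 34.8 in M2 and was 1 of 4 peaks in a cluster there. The remaining peaks were nearest to Gm5614 (39.8 in M1), AC166110.3 (37.7), Gm31793 (34.0) and Wls (33.4), the last of which encodes the carrier that brings Wnt proteins to the cell surface. At the other end of the scale, the 10 peaks with the lowest M1 fold enrichment had values of 2.41 to 3.05.

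A high q value, which was looked at after the values were seen, marked a partly different set. The 99th percentile of −log10 q was 79.3. It was exceeded by 41 of the 3089 peaks (1.33%), 25 of them also of very high fold enrichment. The share above it was 2.16% among shared promoter peaks and 0.647% among shared peaks inside genes. The highest −log10 q of all, 2945 in M1 and 1976 in M2, belonged to a peak of 1014 bp at chr17:13552133-13553146 with a fold enrichment of only 16.5 in M1 and 13.8 in M2. It lay inside 2700054A10Rik of RefSeq. A second peak in the same gene, chr17:13550673-13551395, had a −log10 q of 835 with a fold enrichment of 7.57.

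Clustering was the other sign. A cluster was a run of at least 3 peaks with neighbouring summits at most 10 kb apart; there were 57 clusters with 198 peaks (6.41%). The share was 2.70% among shared promoter peaks and 5.78% among shared peaks inside genes, counted the same way. Of the 57 clusters, 42 had 3 peaks, 7 had 4 and 8 had 5 or more. Peaks in clusters were no stronger than the others, with a median M1 fold enrichment of 6.12 against 6.19, and 4 of the 198 were of very high enrichment. Clustering and very high enrichment together marked 237 peaks (7.67%), and 2852 had neither sign.

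**Figure D3:**
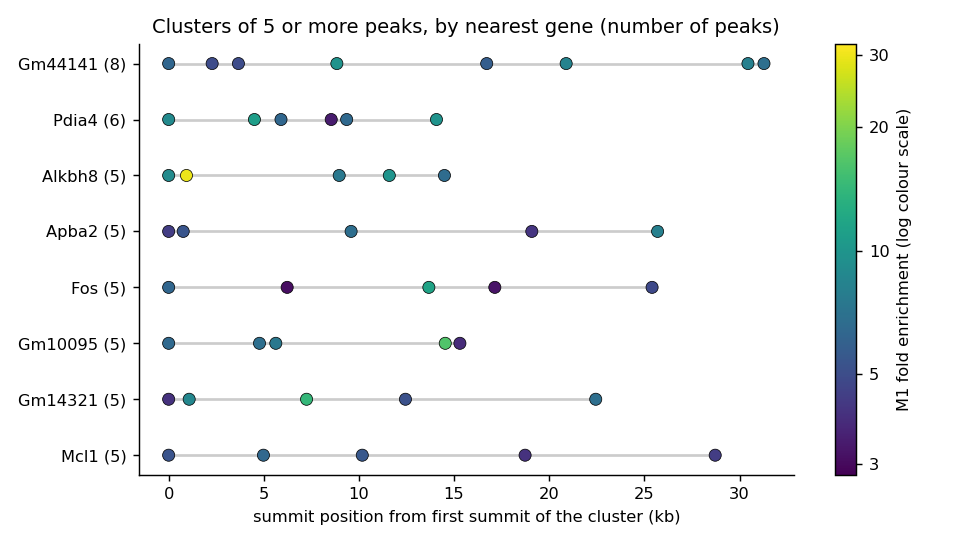
Summit positions (kb from the first summit) of the 44 peaks in the 8 clusters of 5 or more, 1 line per cluster, named by the nearest gene with the number of peaks; colour gives M1 fold enrichment on a log scale. The Gm44141 cluster has 8 peaks over 31.3 kb, and only the Alkbh8 cluster holds a peak of very high enrichment, at 29.9.

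The 2 clusters with most peaks were neighbours on chromosome 6. The first, chr6:47650873-47682375, had 8 peaks over 31.3 kb, with fold enrichments of 4.91 to 9.86 in M1 and 3.02 to 8.11 in M2, and its nearest gene in the expression table was Gm44141. RefSeq places a series of predicted genes and Rn4.5s, a small RNA gene annotated as rRNA, in that interval, at chr6:47654921-47655094, and 5 of the 8 summits were inside RefSeq genes. The second, chr6:47743694-47758280, had 6 peaks over 14.1 kb (up to 10.9 in M1) and lay 55.4 to 69.4 kb from the start of Pdia4, a protein disulfide isomerase of the endoplasmic reticulum. No peak of either cluster was of very high enrichment.

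A pair of clusters lay at the first sequenced positions of chromosome 9, where the nearest start site, of Alkbh8, was 297 to 335 kb away. The cluster chr9:3023424-3038219 had 5 peaks, with 29.9 in M1 and 27.5 in M2 for the highest, and chr9:3000307-3006944 had 4 peaks, 2 of them of very high enrichment, up to 22.8 in M1 and 19.1 in M2. Mouse chromosomes begin at the centromere, and satellite repeats are assembled there only in part. In all, 27 of the 3089 peaks on 10 chromosomes had a summit before 3.2 Mb, 9 of them on chromosome 9 and 4 on chromosome 10; 4 of the 27 were of very high enrichment. Whether reads from unassembled repeats were mapped to these positions was not tested.

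The other 5 clusters of this size lay beside Fos, Mcl1, Apba2, Gm10095 and Gm14321. The Fos cluster, chr12:85472115-85498114, had 5 peaks from 1.35 kb upstream of the Fos start to 24.1 kb beyond it; Fos encodes an AP-1 subunit. Their M1 fold enrichments were 6.25, 3.09, 11.5, 3.20 and 4.85 in order along the chromosome, and the highest stood 12.3 kb from the start. The Mcl1 cluster, chr3:95645439-95674478, had 5 peaks of 3.99 to 6.34 in M1 around Mcl1, an anti-apoptotic BCL2 relative, with E330034L11Rik and Adamtsl4 as nearest genes for the outer ones. The Apba2 cluster (chr7:64468210-64494212) had 5 peaks of 4.09 to 8.06 in M1, the Gm10095 cluster (chr12:86819302-86834741) 5 of 3.82 to 16.5, and the Gm14321 cluster (chr2:167752879-167775602) 5 of 4.01 to 14.2. Of the 42 clusters of 3, some had Il10, Ccr1, Pim1, Bcl3, Zfp36l2, Syk or Cd47 as nearest gene. Others were nearest to genes such as Cirbp and Ccdc97 or to predicted genes. Nearest did not mean near: the Pim1 cluster lay 53.5 to 58.65 kb from the start and the Zfp36l2 cluster 61.6 to 69.5 kb. The Cd47 cluster lay 139 to 152 kb away, with all 3 summits inside Gm5486 of RefSeq.

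For 2700 peaks the nearest start site was within 100 kb, and these peaks named 2039 genes, 8.73% of the 23346 in the table. A total of 460 genes were nearest to more than 1 peak and 16 to 5 or more. A nearest gene is only the closest start on the chromosome; the files do not show which gene a region acts on. Per kb of gene length, the control level of the tested nearest genes (median 63.1 normalized counts per kb) was above that of all tested genes (27.4) and below that of genes with a shared promoter peak (124). The genes with most peaks within 100 kb were Zfp36l2, which encodes an mRNA decay factor, and Gm10095, with 9 each. Pdia4 and Gm44141 had 8 each, Gm14321 had 7, and Fos, Wsb1 and 5830428M24Rik had 6 each.

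The targeted gene was lower in the knockout. Ets1 had 3641, 3337 and 2869 normalized counts in the 3 control libraries and 825, 755 and 645 in the 3 knockout libraries (log2 fold change −2.15, SE 0.11, limma adjusted p = 3.93e-07). The groups did not overlap, and the remaining level includes reads from any exon outside the deleted part. No peak between genes had Ets1 as its nearest gene. Of the 20595 genes tested, limma called 4298 (20.9%) at an adjusted p under 0.05, with 10.4% higher and 10.5% lower in the knockout.

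Of the 1843 nearest genes that were tested, 493 were called (26.7%), 276 higher and 217 lower in the knockout. The share was above the 20.9% of all tested genes. In both sets the share called rose with expression level. Among genes with a mean of at least 1000 normalized counts in the higher group, 47.8% of 578 nearest genes were called, against 45.4% of all 4052 tested genes. From 100 to 1000 it was 29.4% against 24.0%, from 10 to 100 it was 19.6% against 19.9%, and below 10 it was 14 of 466 against 208 of 6444. Among these level ranges the shares were furthest apart from 100 to 1000. All tested genes include the nearest genes, and the part of level in the difference between the sets was not tested. The nearest genes of M1 peaks between genes that overlapped no M2 peak were called at 27.2%, about as often. The median log2 fold change of the tested nearest genes was −0.01, against −0.04 over all tested genes.

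**Figure D4:**
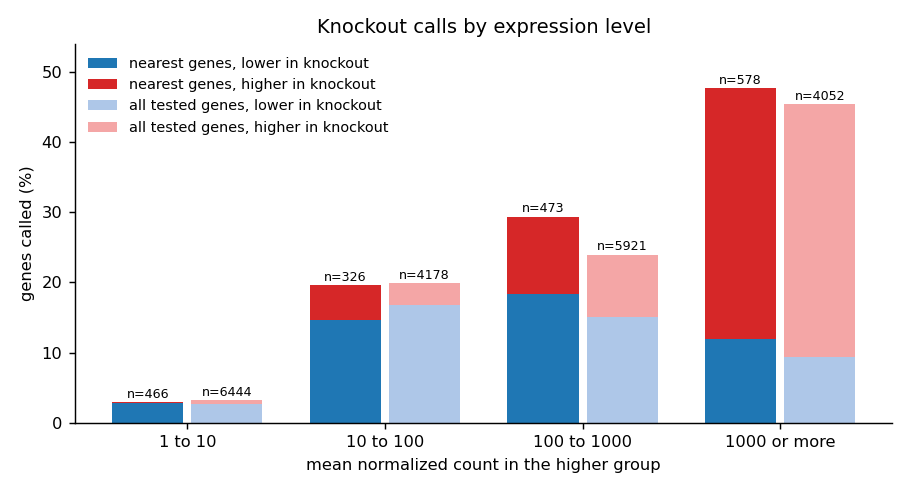
Share of genes called by limma at an adjusted p under 0.05 (%), by mean normalized count in the higher of the 2 groups; dark bars are nearest genes of shared peaks between genes, light bars all tested genes, split by direction, with the number tested above each bar. At 1000 or more, 47.8% of nearest genes and 45.4% of all tested genes were called.

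The split by direction depended on scaling. When libraries were scaled to total reads instead of the authors' size factors, the median over all genes moved by −0.13 on the log2 scale, the nearest genes called became 186 higher and 331 lower, and all genes called became 1186 higher and 3253 lower. The number of calls also rested on single libraries: nearest genes called fell to 278 when control replicate 2 was left out, and to 293, 274 and 318 when knockout replicate 1, 2 or 3 was. Nearest genes with a shared promoter peak as well were called at 32.3% (249 of 771), and those without one at 22.8% (244 of 1072). Their median control levels differed too, at 906 and 22.4 normalized counts, and calls rose with level. The part of level in this gap was not tested. Nearest genes of peaks with neither sign of an artifact region were called at 26.8% (476 of 1779).

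Markers of several other cell types were lower in the knockout. Neutrophil markers summed to 20066 to 23460 normalized counts in control libraries and 11480 to 11977 in knockout libraries, and 7 of 9 were lower in the knockout. Stromal markers summed to 10449 to 15400 against 3395 to 4117, with 8 of 8 lower, megakaryocyte and platelet markers to 2877 to 4834 against 1073 to 1258, with 4 of 5 lower, and T and NK cell markers to 365 to 415 against 58.1 to 62.3, with 2 of 5 tested lower. B cell markers summed to 3831 to 4456 against 3623 to 3825, with 5 of 8 lower, and mast cell and basophil markers to 86.3 to 155 against 12.6 to 19.0, with 3 of 6 lower. Endothelial markers summed to 996 to 1245 against 788 to 972, with 3 of 5 lower, erythroid ones to 21.6 to 24.4 against 2.18 to 11.2, with 1 of 3 lower, and dendritic cell ones to 118 to 183 against 86.1 to 127, which overlap, with 0 of 6 called by limma. Cd8a, Cd209a, Gp1bb and Hbb-bs were at 0 or not listed. The 8 macrophage markers summed to 282226 to 286177 in controls and 366280 to 381102 in the knockout, with 2 higher and 1 lower. Their median log2 fold change was −0.09, so the higher sum was not a rise of most markers. The 8 include Lyz2, the gene that drives the Cre. In bulk RNA, fewer cells of a type and less RNA per cell cannot be told apart, and the part of these cells in the changes below was not tested.

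The nearest genes were next read by program, in 8 lists with 236 genes of the table, of which 94 (39.8%) were nearest to at least 1 of the peaks. Of 92 tested, 46 were called, 16 higher and 30 lower in the knockout, or 50%. The whole lists, with or without a peak, had 113 of 234 tested genes called (48.3%), 39 higher and 74 lower, so the share near a peak was close to that of the lists themselves. The lists were chosen with earlier results of these data known, so that their shares are descriptions.

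**Figure D5:**
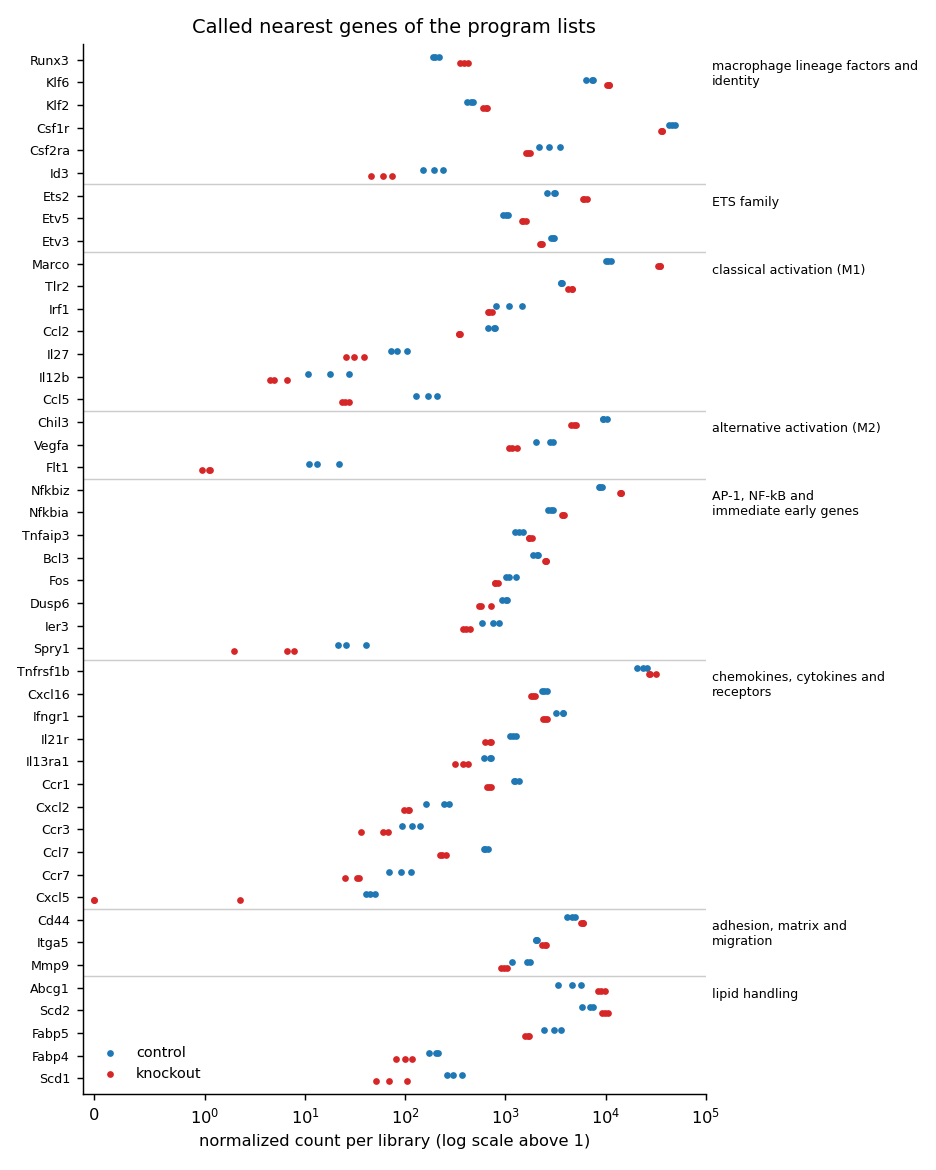
Normalized counts per library (log scale above 1) of the 46 called nearest genes of the program lists, with the list named at the right; blue points are the 3 control libraries, red points the 3 knockout libraries. In every one of the 46 genes the 3 libraries of one group lie apart from the 3 of the other. The same was so for 487 of all 493 called nearest genes, and the calls were made on these same libraries.

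Chemokines, cytokines and their receptors formed the list with the most members near a peak, 22 of 37 genes, with 30 peaks. Of 21 tested, 1 rose and 10 fell in the knockout, and 10 did not pass; the median log2 fold change was −0.50. The whole list had 1 higher and 20 lower of 36 tested. Ccl7, a monocyte attractant, had 616, 669 and 618 normalized counts in controls and 223, 253 and 232 in the knockout, a 2.69-fold lower level (log2 fold change −1.42, SE 0.10, limma adjusted p = 2.68e-06). Its peak (chr11:82041752-82042047) stood 3.83 kb upstream with a fold enrichment of 4.16 in M1 and 6.92 in M2. Every control library was above every knockout library. In each of the 11 genes called from this list the groups were apart, as in 487 of all 493 called nearest genes.

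The receptor genes Ccr1, Ccr3, Ccr7, Ifngr1, Il13ra1 and Il21r also fell. Ccr1, a receptor for CC chemokines, had 1203, 1235 and 1370.0 in controls and 653, 720.0 and 687 in the knockout (limma adjusted p = 2.48e-05), with 3 peaks in a cluster 36.7 to 43.8 kb from its start and an M1 fold enrichment of up to 11.5. Il21r, the receptor for interleukin 21, had 1117, 1193 and 1271 against 629, 707 and 714 (adjusted p = 6.53e-05 by limma) and a peak 1.53 kb upstream (6.29 in M1, 5.76 in M2). Among ligands, Cxcl2, Cxcl16 and Cxcl5, which attract neutrophils or lymphocytes, fell. Cxcl5 was read 144 times in the controls and 2 times in the knockout, a ratio of 60 with a 95% counting interval of 17.3 to 529. Tnfrsf1b, a TNF receptor, rose only just (25950.1, 23454 and 20393 against 31518, 27879 and 26857, limma adjusted p = 0.0498) and lost its call under scaling to total reads, with other pseudocounts, with no filter on low values and without any 1 of control replicates 2 and 3 and the 3 knockout libraries (up to 0.231); Ccr3 lost its call without control replicate 2. Ccl3, Ifnar1, Il10ra and Il1rn, the 4 genes of highest control level among those that did not pass, had log2 fold changes of 0.17, 0.08, −0.05 and −0.18.

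Of the classical activation list, 12 of 27 genes were nearest to 21 peaks; 2 rose, 5 fell and 5 did not pass, with a median log2 fold change of −0.65. Over the whole list 5 were higher and 8 lower of 27 tested. Marco, a scavenger receptor for bacteria and particles, had 10125, 11220.2 and 10551 normalized counts in controls and 34506, 34509 and 33325 in the knockout, a 3.21-fold higher level (log2 fold change 1.68, SE 0.08, limma adjusted p = 1.53e-07). Its 3 peaks lay 12.7 to 53.4 kb from the start, with fold enrichments of 4.87 to 6.24 in M1 and 4.12 to 6.25 in M2. Marco was the rise with the smallest p, and its groups were far apart.

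Ccl5, a chemokine of T cells and monocytes, fell from 129, 167 and 209.5 to 25, 27.2 and 23.5 normalized counts (log2 fold change −2.66, SE 0.22, limma adjusted p = 1.02e-05); its nearer peak was 4.39 kb upstream. Ccl2, the main monocyte attractant, fell from 664, 768 and 792 to 349, 347 and 347 (limma adjusted p = 1.43e-05), with a peak 19 kb upstream (9.23 in M1, 7.41 in M2). Il27 and Il12b, cytokine subunit genes at low levels, fell as well. Irf1, an interferon response factor, is the gene of this list with a peak of very high enrichment: chr11:53763366-53764152, 6.23 kb upstream, had 17.2 in M1 and 14.5 in M2 and also covers the Mir7671 hairpin of RefSeq. Irf1 had 802, 1095 and 1473 in controls and 676, 681 and 735 in the knockout (limma adjusted p = 0.0154). Tlr2, the receptor for bacterial lipoproteins, rose from 3637, 3599.8 and 3608 to 4201, 4608 and 4595 (limma adjusted p = 0.00964) and had 3 peaks, up to 16.6 in M1.

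Some of these calls were not firm. Irf1 and Il12b lost theirs without control replicate 2 or any 1 of the knockout libraries, Il12b also without control replicate 3, and Tlr2 without control replicate 2 and knockout replicates 2 or 3 and under scaling to total reads. Nos2, the inducible nitric oxide synthase, had 88.1, 87.5 and 103 and 52.2, 78.8 and 71.5 (limma adjusted p = 0.129), and its peak 33.8 kb away had 9.56 in M1 and 5.4 in M2. Il1b, Il1a and Socs3 did not pass the test either, with log2 fold changes of −0.15, −1.16 and 0.15, while Il1a had peaks of up to 11.4 in M1 and 15.1 in M2.

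Of the alternative activation list, 6 of 23 genes were nearest to 10 peaks; of 5 tested, 3 fell and 2 did not pass, with a median log2 fold change of −1.02. Over the whole list 1 was higher and 9 lower of 22 tested. Chil3, a chitinase-like protein and common M2 marker, had 9319, 10403 and 9458 normalized counts in controls and 4529, 5055 and 4789.6 in the knockout (log2 fold change −1.02, SE 0.08, limma adjusted p = 4.31e-06); its peak was 38.3 kb away. Vegfa, the vascular growth factor, fell from 2003, 2777 and 2970.2 to 1303, 1170.5 and 1089 (limma adjusted p = 0.000106), and its peak was just past the 1 kb limit, 1.03 kb upstream (3.5 in M1, 3.63 in M2). Flt1, a VEGF receptor, was read 50 times in controls and 3 times in the knockout, a ratio of 14.5 (95% counting interval 4.75 to 73.7). Il10, with 3 peaks up to 9.85 in M1, had 272, 350.0 and 428 and 399, 462 and 489.6 and did not pass (limma adjusted p = 0.0944), nor did Tgm2.

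The list of AP-1, NF-κB and immediate early genes had 21 of 46 genes near 49 peaks, the most peaks of the 8 lists. Of the 21, 4 rose, 4 fell and 13 did not pass, with a median log2 fold change of −0.08; under scaling to total reads 3 rose and 8 fell. The whole list of 46 had 7 higher and 11 lower. The genes that rose act as brakes or coregulators of NF-κB. Nfkbiz, which encodes a nuclear IκB protein, had 8795, 9201 and 8648 normalized counts in controls and 13847, 14104 and 14197 in the knockout, a 1.58-fold higher level (log2 fold change 0.66, SE 0.07, limma adjusted p = 5.21e-05), and was nearest to 6 peaks, 48.7 to 474 kb away, of 4.21 to 8.4 in M1. Nfkbia, the inhibitor IκBα, rose from 2660.1, 2824 and 2964 to 3769, 3824 and 3685 (limma adjusted p = 0.00166). Tnfaip3, the ubiquitin editor A20, rose from 1374, 1484 and 1235 to 1738, 1847 and 1712 (limma adjusted p = 0.00832) with 4 peaks 38.1 to 71.9 kb from its start, and Bcl3 rose by 0.33 on the log2 scale.

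The genes that fell were Fos, Dusp6, Ier3 and Spry1. Dusp6, the phosphatase that switches off ERK, had 1009, 920.1 and 1045 in controls and 547, 564 and 709.8 in the knockout (limma adjusted p = 0.000672), and Spry1, another feedback inhibitor of ERK signalling, had 21.1, 25.6 and 40.4 and 6.53, 1.95 and 7.82 (limma adjusted p = 0.00624). Ier3, an early response gene with peaks of 8.46 and 16.6 in M1, fell from 578, 756 and 858 to 403, 439 and 381 (limma adjusted p = 0.00105). Fos, beside its cluster of 5 peaks, fell from 1003, 1279 and 1074 to 788, 849 and 791 (limma adjusted p = 0.00594). In all 4 the groups were apart, as in nearly all called nearest genes (487 of 493). Zfp36l2, Junb, Rela and Ier5 did not pass limma, with log2 fold changes of −0.18, −0.08, 0.07 and 0.02; Zfp36l2 passed under scaling to total reads and with edgeR or DESeq2. Bcl3 and Tnfaip3 lost their calls without knockout replicate 2, and Bcl3 also under scaling to total reads.

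Of the macrophage lineage list, 14 of 33 genes were nearest to 24 peaks; 3 rose, 3 fell and 8 did not pass, with a median log2 fold change of −0.15; under scaling to total reads 3 rose and 6 fell. The whole list of 33 had 7 higher and 7 lower. Id3, an inhibitor of basic helix-loop-helix factors, had 149.7, 192 and 237 normalized counts in controls and 45.7, 59.4 and 73.8 in the knockout (log2 fold change −1.68, SE 0.22, limma adjusted p = 0.000228). Csf2ra, a subunit of the GM-CSF receptor, fell from 2156, 2699 and 3486 to 1618, 1681 and 1747 (limma adjusted p = 0.00337), and Csf1r, the M-CSF receptor, from 49028, 46155 and 42480.2 to 35742, 36412 and 36155 (limma adjusted p = 0.0149). The Csf1r call was lost without control replicate 2 or any 1 of the knockout libraries (adjusted p up to 0.093 by limma). Runx3, Klf2 and Klf6, transcription factor genes, rose, Runx3 from 215, 198 and 189.8 to 428, 354 and 385 (limma adjusted p = 0.000149) with 3 peaks 40.5 to 66.8 kb from its start. Runx1, with 5 peaks up to 11.3 in M1, Csf2rb and Fcgr1 did not pass; Fcgr1 passed, as lower, under scaling to total reads.

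Of 19 ETS family genes, 4 were nearest to 5 peaks: Ets2 and Etv5 rose, Etv3 fell, and Elf2 did not pass. Of all 19, 8 were higher and 3 lower. Ets2, the closest relative of Ets1, had 3132, 3035 and 2623 normalized counts in controls and 6551, 6141 and 6012 in the knockout, a 2.13-fold higher level (log2 fold change 1.09, SE 0.08, limma adjusted p = 4.34e-06). Its peak (chr16:95728664-95729352) lay 26.8 kb downstream of the start, beyond the end of the gene, with 7.98 in M1 and 9.59 in M2. Etv5 rose from 1056, 1022 and 955 to 1496, 1608 and 1452 (limma adjusted p = 0.000332), and Etv3, a repressor of this family, fell from 2953, 3040.5 and 2861 to 2328, 2230.0 and 2265 (limma adjusted p = 0.00264).

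In the lipid list 9 of 23 genes were nearest to 10 peaks; 2 rose, 3 fell and 4 did not pass, with a median log2 fold change of −0.17. The whole list of 23 had 4 higher and 5 lower. Abcg1, a cholesterol exporter, had 5629, 4662 and 3366 in controls and 9802, 8914 and 8339.5 in the knockout (limma adjusted p = 0.000478). The desaturase genes Scd1 and Scd2 went opposite ways: Scd1 fell from 366, 259 and 298 to 104, 51.6 and 69.3 (limma adjusted p = 6.71e-05) and Scd2 rose from 7452, 7055 and 5749 to 10518, 9912 and 9269.5 (limma adjusted p = 0.00192). The fatty acid binding protein genes Fabp4 and Fabp5 fell, with log2 fold changes of −0.99 and −0.84; Plin2, Abca1, Insig1 and Olr1 did not pass, and Plin2 and Olr1 passed, as lower, with edgeR and under scaling to total reads. Of the 6 adhesion and matrix genes of 28 that were near 11 peaks, Cd44 and Itga5 rose, Mmp9 fell and Itgb1, Timp2 and Plau did not pass (median log2 fold change of the 6, 0.07, and −0.07 under scaling to total reads). The whole list of 28 had 6 higher and 11 lower. Mmp9, a gelatinase also made by neutrophils, had 1777, 1651 and 1160.5 and 1033, 958 and 894 (limma adjusted p = 0.00524). Under scaling to total reads 1 of the 6 rose and 2 fell, and Itga5 lost its call. Without control replicate 2 Itga5 and Mmp9 lost their calls, without knockout replicate 2 all 3 did, and without knockout replicate 1 Cd44 and Itga5 did.

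The largest falls among all nearest genes included genes of other blood cells. Igha, an immunoglobulin heavy chain constant gene, was read 362 times in the controls and never in the knockout, at least 107-fold higher in controls when 3 reads over the group are taken as the floor, and its peak 2.5 kb away had 4.2 in M1 and 4.41 in M2. Ighg2c, another, was read 215 times against 1, with 2 peaks near it, and Pdcd1, the lymphocyte receptor PD-1, 47 times against 1. Cpa3, a mast cell protease, was read 38 times in controls and never in the knockout (at least 11.3-fold higher in controls). Of the markers given above, 5 of 8 of B cells, 2 of 5 tested of T and NK cells and 3 of 6 of mast cells, Cpa3 among the last list, were lower in the knockout. Cxcl5, Flt1, Slit3, Larp6, Gm13994 and Apba2 completed the 10 largest falls, the last 4 with 41 or fewer reads in the controls. Apba2, beside its cluster of 5 peaks, was read 21 times in the controls and never in the knockout (at least 6.2-fold higher in controls).

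The largest rises were Calb2, 2410003L11Rik, Igf2bp3, A330074K22Rik, Gm36638, AC124681.1, Marco, Cacna1b, Rnf43 and Tnfsf4. Igf2bp3, an RNA-binding protein of fetal tissues, had 33.5, 47.2 and 38.5 normalized counts in controls and 284, 255 and 220.2 in the knockout, a 6.37-fold higher level (log2 fold change 2.65, SE 0.19, limma adjusted p = 2.66e-06). Its peak (chr6:49217662-49218100) lay 2.97 kb upstream, with 7.35 in M1 and 7.33 in M2. Calb2, the calcium buffer calretinin, was read 1 time in the controls and 42 times in the knockout (ratio 46, 95% counting interval 8.09 to 1925). 2410003L11Rik was read 19 times in the knockout and never in controls, at least 7.13-fold higher by the same floor. Rnf43, a ubiquitin ligase for Wnt receptors, rose from 17.6, 21.6 and 14.1 to 51.1, 45.7 and 52.5 (limma adjusted p = 0.00397), and Tnfsf4, the OX40 ligand, from 9.69, 10.8 and 9.4 to 37, 25.3 and 24.6 (limma adjusted p = 0.0134). Leaving out 1 library ended the calls of A330074K22Rik (control replicate 2 or any of the knockout libraries), AC124681.1 (any of the knockout libraries), Gm36638 (5 of the 6), Cacna1b (knockout replicate 2) and Tnfsf4 (knockout replicate 1), and Gm36638 did not pass with edgeR or DESeq2.

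Of the genes nearest to the 10 highest peaks, 3 were called. The share called was 20.9% over all tested genes, and 45.4% at 1000 or more normalized counts, the level of Adgre5 and Wls. Macc1, Gm5614, Gm18774, Gm44429 and Gm31793 had at most 4.47 normalized counts in any library, and Macc1 and Gm5614 were too low to be tested. A630089N07Rik and Gm21887 did not pass limma (adjusted p = 0.436 and 0.902). Adgre5 rose from 1837, 1984 and 2001 to 2365, 2367 and 2470.2 (limma adjusted p = 0.0102) and AC166110.3 from 558, 565 and 482 to 720.3, 789 and 737 (limma adjusted p = 0.00352), and Wls fell from 1927, 1844 and 1874 to 1637, 1606 and 1576 (limma adjusted p = 0.0375). Wls lost its call without control replicate 2 or any 1 of the knockout libraries, and Adgre5 without knockout replicates 2 or 3 and under scaling to total reads.

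Among genes with 5 or more peaks, Pim1, a survival kinase, rose from 1666, 1581 and 1579 to 2811, 2735 and 2399.8 normalized counts (log2 fold change 0.72, SE 0.08, limma adjusted p = 7.61e-05). Its 5 peaks lay 7.49 to 58.6 kb from the start. The summit of 1 of them fell in the window at the RefSeq start of Gm36199 that held both motifs. The ETS core of that window lay outside the peak, and its AP-1 site lay inside. Zc3h12a, the ribonuclease Regnase-1, rose from 1978, 2094 and 2137 to 2401, 2569 and 2597, Pdia4 from 3852, 3025 and 2559 to 4489, 4624 and 4477 and Fem1c by 0.36 on the log2 scale, while Irf2bp2 fell from 3317, 3286 and 3603 to 2903, 2779 and 2724 and P4ha2, a collagen prolyl hydroxylase, fell from 306, 287 and 339 to 227, 229 and 266; limma adjusted p-values were 0.0157, 0.0065, 0.00916, 0.0167 and 0.0454. Skil, Wsb1, Gm10095, Gm14321, Gm44141 and 5830428M24Rik did not pass, and Nmur1 was too low to be tested. The calls of Zc3h12a, Pdia4, Fem1c, Irf2bp2 and P4ha2 were each lost without knockout replicate 2 and without at least 1 other library, that of P4ha2 also with DESeq2 and that of Zc3h12a also under scaling to total reads. Counted over all nearest genes, 8 of 15 tested genes with 5 or more peaks were called, 37 of 105 with 3 or 4, 86 of 298 with 2, and 362 of 1425 (25.4%) with 1; the genes with more peaks also had higher levels per kb, from a median of 57.8 normalized counts per kb with 1 peak to 262 with 5 or more.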

How the data were processed

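Ets1 ChIP-seq (1 M1 and 1 M2 library) and RNA-seq (3 control and 3 knockout libraries) of mouse macrophages were analysed. Per the submitters' processing notes the build is mm10 and the tools include HISAT2 2.1.0, Bowtie2 2.2.3, HTSeq 0.6.0, BWA, SAMtools, MACS2, deepTools and DESeq2, with no role or order given; the input control, the peak threshold and the strand setting are not given. The deposited peak lists give, for each peak, fold enrichment (a ratio), −log10 p and −log10 q and a score as the authors' peak caller wrote them; the lowest −log10 q is 1.30 in both. The expression values deposited by the authors are a signal of counts divided by size factors: 100% of them were whole multiples of 1 step per library within 0.001, so reads were recovered. The table also holds the authors' means, log2 fold changes, p-values and adjusted p-values, as deposited, which were not used.

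M1 peaks were selected by overlap, summit and gene coordinates (Python 3.11, pandas). Genes with a group mean of at least 1 were compared on log2(value + 1) with limma 3.58.1 and Benjamini-Hochberg adjustment at 0.05; fold changes are on that scale and understate those of low genes. The control carries no Cre, and other differences between the groups cannot be told apart from the loss of Ets1. edgeR 4.0.16 and DESeq2 1.42.0 were run on recovered reads. The fit was tested on simulated data. Counting intervals (exact, 95%) and floors (3 reads over a group) cover counting error only. Overlapping genes and near-identical genes such as immunoglobulin segments may share reads. Symbols written as dates (25) were restored from gene identifiers.

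Peaks named are the 10 of highest M1 fold enrichment and the clusters of 5 or more; genes named are those nearest to the 10 peaks, the 10 largest falls and rises among called nearest genes whose libraries do not overlap, called nearest genes of the program lists with up to 4 others per list by control level, genes with 5 or more peaks and Ets1. The clusters of 3 or 4 and their genes, the second q-based sign and the genes with 5 or more peaks were chosen after values were seen. The members and lists were chosen with earlier results of these data known. A planned count of ETS cores around all summits needs genome sequence, which was not used here; RefSeq promoter windows replaced it.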

Additional observations from a re-analysis of the deposited data

How the results depend on the processing

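The number of shared peaks between genes was 2331 with an overlap of at least 50% of both peaks, 2645 with start sites at 5 kb, 3074 with the whole M1 peak outside genes, 3012 from the M2 list and its summits, 2360 with RefSeq as well, 2852 without clusters and very high fold enrichment and 2842 without very high q too (the last added after values were seen); only a −log10 q of at least 10 in both lists moved it by over 1.5 times, to 839. The 198 peaks in clusters became 62 with a 5 kb chain and 782 with a 50 kb chain. ETS core counts around all summits were not run.

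Genes called were 4174 to 4439 and nearest genes called 483 to 517 under other pseudocounts, filters, scaling, edgeR and DESeq2, and nearest genes called were 442 to 557 under other distance rules and without peaks that carry a sign of artifact regions. Leaving out 1 library gave 2029 to 5716 genes called and 274 to 627 nearest genes called. With the replicate number as a block, 5374 genes and 610 nearest genes were called; each library correlated best with its own number (correlations of 0.022 to 0.031), but the labels give no shared animal or day, so the number was not taken as a pair. Of 112 named genes none changed direction where called; over 1554 values under the alternatives, 79 lost and 30 gained a call. Of the 6444 tested genes under 10 normalized counts, 208 were called; the part of depth in this was not tested.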
